A study of Homo sapiens with 11 samples.

Results

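AluY elements are the youngest of the 3 large groups of Alu repeats in the human genome, and they were followed here in RNA recovered with the J2 antibody, which binds double-stranded RNA. A repeat copy was counted as a member where the family field of its name in the deposited count tables began with AluY. This gave 145395 copies in 25 named subfamilies, or 2.59% of the 5622516 annotated repeat elements. The subfamily called simply AluY held 101596 of these copies; below, "AluY subfamily" means those copies and "AluY group" means all 25 subfamilies. The choice rested on names and used no measured value.

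The cells were HCT116, an established human colorectal cancer line. One J2 library came from cells that received an siRNA against luciferase, the control siRNA (siLuc), and the solvent DMSO. A library of siLuc cells treated with decitabine (DAC) at 500 nM and a library of cells given an siRNA against Staufen1 (siStau1) with the same drug completed the set; treatment lasted 5 days. A J2 library of siStau1 cells in DMSO was not analysed here. Each group had 1 library, so no difference below has a replicate check and no test was made. The 3 comparisons share libraries and are not independent of each other, and siStau1 DAC differs from siLuc DMSO in both the siRNA and the drug, whose contributions cannot be told apart in that pair. The shared protocol text names an antibody to Staufen1 where the library labels name J2, and the labels were followed.

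Alu elements are short interspersed repeats that spread through the genome by copying their RNA with enzymes supplied by LINE-1 elements. AluJ copies are the oldest, AluS copies are of intermediate age, and AluY copies are the youngest; AluYa5 and AluYb8 are among the subfamilies that have still been inserting in recent human history. Because Alu copies are numerous in introns and untranslated regions, 2 copies in opposite orientation within 1 transcript can fold back on each other into a long RNA duplex. Such duplexes are edited by ADAR1, are sensed by MDA5 when editing fails, and are bound by Staufen1, a double-stranded RNA-binding protein that acts in mRNA decay and transport. Decitabine inhibits DNA methyltransferases and so lowers methylation of repeats, Alu included.

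Reads on repeats numbered 71473124 for siLuc DMSO, 68944777 for siLuc DAC and 83037330 for siStau1 DAC. In the authors' deposited table of gene expression, STAU1 stood at 35.5 FPKM in siLuc DMSO total RNA, 33.7 in siLuc DAC and 27.1 in siStau1 DAC (authors' q-value 0.685 for the pair under decitabine), so the targeted mRNA was little lower in cells given its siRNA. The epithelial genes EPCAM and KRT18 were present in that table at 259 and 681 FPKM in siLuc DMSO. Reads fell on copies in even numbers more often than in odd ones, as when both ends of a fragment are counted. Intervals of shares and of summed ratios therefore take 2 reads as 1 draw and cover counting error only. Those of copy medians come from the ranks of copies and take each copy as 1 draw. Neighbouring copies had like read numbers, as given below, so those intervals may be too narrow. All intervals are at the 95% level, and none covers differences between replicate libraries.

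AluY made up a small part of the Alu signal in every library. The AluY group received 3415574 reads (siLuc DMSO), 2760432 (siLuc DAC) and 3799673 (siStau1 DAC). As a share of Alu reads this was 8.32%, 8.55% and 8.48% in the same order. As a share of all repeat reads it was 4.78% (Wilson interval 4.77 to 4.79%) for siLuc DMSO, 4.004% (3.997 to 4.01%) for siLuc DAC and 4.58% (4.57 to 4.58%) for siStau1 DAC. The lower share in siLuc DAC was therefore one that AluY had in common with the rest of Alu: AluS took 39.5%, 31.3% and 36.6% of repeat reads, and AluJ took 12.7%, 10.9% and 12.3%.

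Within the AluY group the reads were spread over subfamilies in nearly the same proportions in every library. The AluY subfamily held 78.16%, 77.82% and 77.95% of AluY-group reads in siLuc DMSO, siLuc DAC and siStau1 DAC. AluYk2 followed with 5.07%, 5.00% and 5.08%, AluYk3 with 4.031%, 4.0005% and 4.036%, and AluYm1 with 3.30%, 3.28% and 3.27%. The shares of AluYc and AluYb8 differed more. AluYc held 1.65%, 1.89% and 1.77%. AluYb8 held 0.603%, 0.726% and 0.642%.

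Read density differed far more between subfamilies than between libraries. The files give no element lengths, so densities are reads per copy and not per base. The AluY subfamily had 26.3, 21.1 and 29.2 reads per copy in siLuc DMSO, siLuc DAC and siStau1 DAC. AluYk2 had 25.1, 20.01 and 28.0. AluYk3 had 22.2, 17.8 and 24.7, and AluYm1, AluYj4 and AluYf1 lay close to it in siLuc DMSO at 23.3, 21.9 and 23.1. The recently active AluYa5 and AluYb8 were sparse by comparison. The treatment of reads that match several copies is not given, and whether it lowered reads per copy in these subfamilies was not tested. AluYa5, which lies outside the naming rule and is described here for its known recent activity, had 6.30, 5.58 and 7.45 reads per copy over 3853 copies. AluYb8 had 7.59, 7.38 and 8.99 over 2715 copies. AluYc, with 6889 copies, was in the same range at 8.16, 7.56 and 9.74.

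The extremes of the range were small subfamilies. AluYh3a3 had the most reads per copy in siLuc DMSO and siLuc DAC, 30.6 and 26.5, and 32.0 in siStau1 DAC, but 1 of its 161 copies carried 51.4%, 57.7% and 47.5% of its reads. AluYk4, with 1117 copies, reached 28.8, 23.4 and 33.4, the last being the most in siStau1 DAC, with 14.8%, 14.5% and 15.9% on its leading copy. AluYh9 was lowest in siLuc DMSO and siLuc DAC, at 2.13 and 2.45 reads per copy, and stood at 2.95 in siStau1 DAC. AluYa8 had 2.25, 2.50 and 2.76, the last being the lowest of the 25 subfamilies in that library. The small subfamilies thus held both ends of the range, and several rested on 1 copy.

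**Figure D1:**
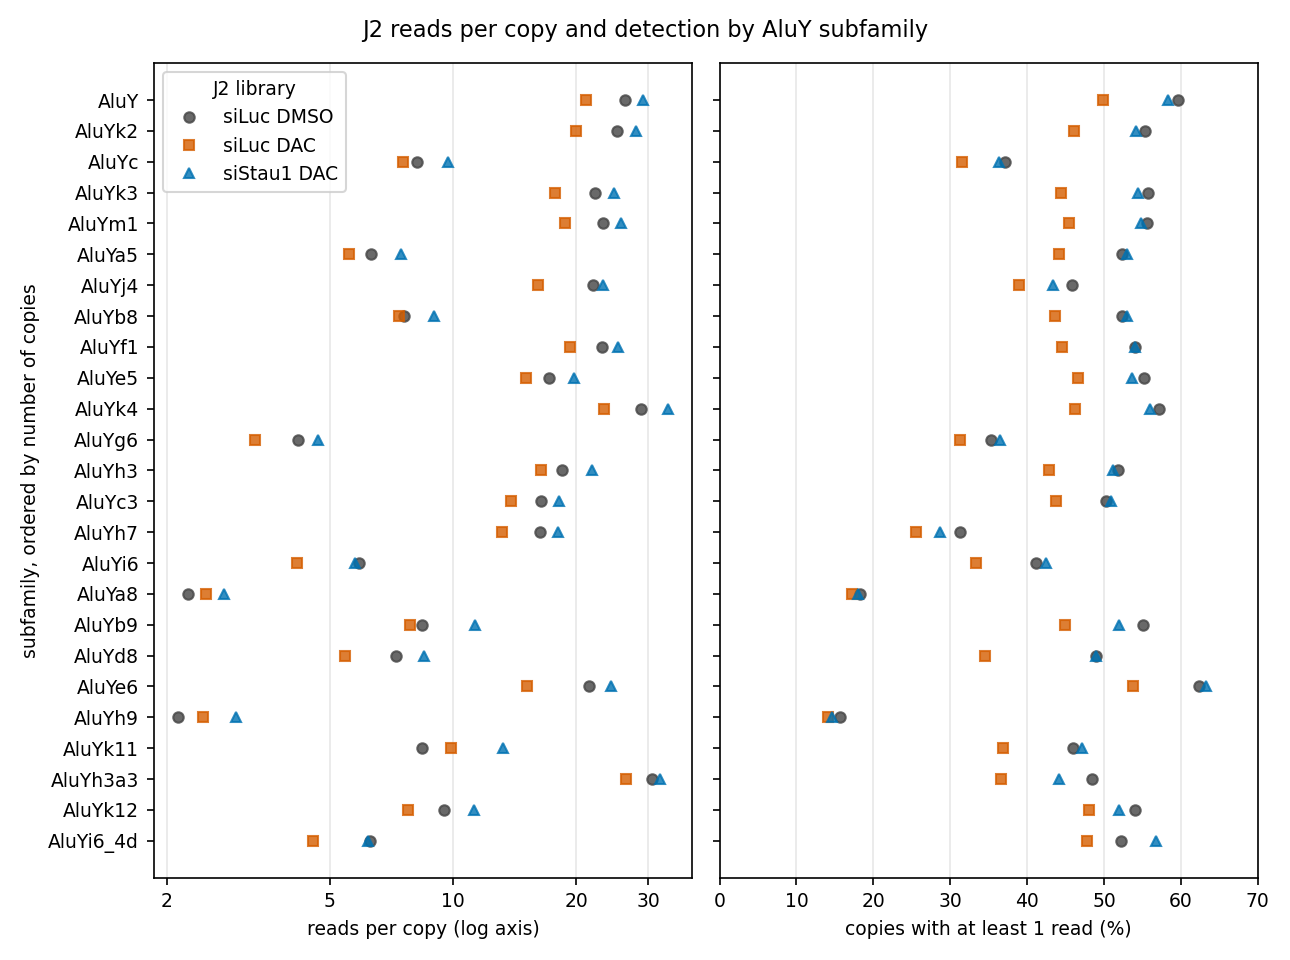
Left, J2 reads per copy (log axis) for each of the 25 AluY subfamilies, ordered from most copies at the top; right, the percentage of copies with at least 1 read. Each point is 1 library (circle siLuc DMSO, square siLuc DAC, triangle siStau1 DAC); the AluY subfamily lies at 21.1 to 29.2 reads per copy and AluYa5 at 5.58 to 7.45, while 52.3% of copies of AluYa5 had a read in siLuc DMSO against 59.7% of the AluY subfamily.

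Low density and low detection were not the same thing. AluYa5 and AluYb8 each had reads on 52.3% of their copies in siLuc DMSO, not far below the 59.7% of the AluY subfamily, although their reads per copy were far below it. AluYc had reads on 37.1% of copies, AluYa8 on 18.3% and AluYh9 on 15.7%. Over the whole AluY group, a read was found on 82510 copies (56.7%) of siLuc DMSO, 68749 (47.3%) of siLuc DAC and 80823 (55.6%) of siStau1 DAC. Thinned to the 2760432 AluY reads of the shallowest library, the shares were 55.7%, 47.3% and 53.9%, so detection stayed lowest in siLuc DAC at a matched number of AluY reads. Thinning read pairs in place of single reads gave 54.0%, 47.3% and 51.7%. Without thinning, AluS had reads on 56.5%, 47.0% and 55.1% of copies and AluJ on 48.3%, 42.5% and 48.0%, so the lower detection was common to all 3 Alu groups. Over all repeat elements the share was 23.6%, 24.8% and 26.0%, and siLuc DMSO was lowest.

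Reads were found in all 3 libraries on 55722 AluY copies (38.3%) and in none of them on 46126 (31.7%). The copies seen in all 3 held 96.3%, 98.5% and 96.8% of AluY reads in siLuc DMSO, siLuc DAC and siStau1 DAC, beside 97.1%, 96.9% and 96.6% for all repeat elements. Copies seen in a single library had few reads: 9715 were seen only in siLuc DMSO, 4171 only in siLuc DAC and 8292 only in siStau1 DAC, each set with a median of 2 reads and with highest values of 22, 15 and 22. These were 6.68%, 2.87% and 5.70% of AluY copies, against 2.78%, 4.08% and 3.74% of all repeat elements, while AluS had 5.80%, 2.07% and 4.75%. The copies missing from 1 library alone numbered 4296 for siLuc DMSO, 12513 for siLuc DAC and 4560 for siStau1 DAC. These were 2.95%, 8.61% and 3.14% of AluY copies, against 2.96%, 3.1% and 1.54% of all repeat elements, while AluS had 1.94%, 7.77% and 2.36%. The excess missing from siLuc DAC was thus found in AluS as well as AluY. The top 1% of copies held 34.8%, 37.6% and 36.4% of AluY reads in siLuc DMSO, siLuc DAC and siStau1 DAC, and the top 10% held 79.9%, 83.1% and 81.3%. At least 100 reads were reached by 7185, 5775 and 7817 copies.

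The leading copies all belonged to the AluY subfamily, and they are named here by the number that follows the subfamily in their name, since the tables give no coordinates. Many copies share a number, and the index that sets them apart in the full name is left out here. A copy numbered 2473 had 6027 reads (siLuc DMSO), 4464 (siLuc DAC) and 6857 (siStau1 DAC). Another, numbered 2485, had 5664, 5243 and 6539. A copy numbered 2489 had 5298, 2775 and 4171. These 3 led the siLuc DMSO library, and in unscaled reads all 3 were lowest in siLuc DAC. Other leading copies went the other way: a copy numbered 2480 had 4801, 7080 and 6664 reads, one numbered 2351 had 4078, 6838 and 7750, and one numbered 2317 had 4098, 6465 and 5058. Those 3 were lowest in siLuc DMSO and led the siLuc DAC library.

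How strongly a copy was represented varied with the number in its name. The tables do not state what that number is; it has the layout of a RepeatMasker alignment score, which rises with the length of a copy and its match to the consensus. Its median was 2451 over the AluY group, 2194 over AluS and 1667 over AluJ. The 5883 AluY copies with a number up to 1000 had 2.14, 2.53 and 2.77 reads per copy in siLuc DMSO, siLuc DAC and siStau1 DAC. Density rose to 29.5, 23.9 and 32.8 between 2200 and 2400 and fell again to 7.76, 6.66 and 8.89 in the 6358 copies above 2800. The rise and the fall were both present in each library.

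Subfamilies also differed within the range above 2800. The 1240 copies of the AluY subfamily there had 11.9, 8.77 and 12.9 reads per copy in siLuc DMSO, siLuc DAC and siStau1 DAC. AluYb8 had 7.71, 7.23 and 9.10, and AluYa5 had 5.56, 4.85 and 6.44, so AluYb8 lay closest to the AluY subfamily in siLuc DAC. The median number was 2841 in AluYa5 and 2881 in AluYb8, so most of their copies lay where density was low in the AluY subfamily too. AluYc, AluYa8 and AluYh9 lay at the other end, with medians of 1453, 663 and 397.5.

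**Figure D2:**
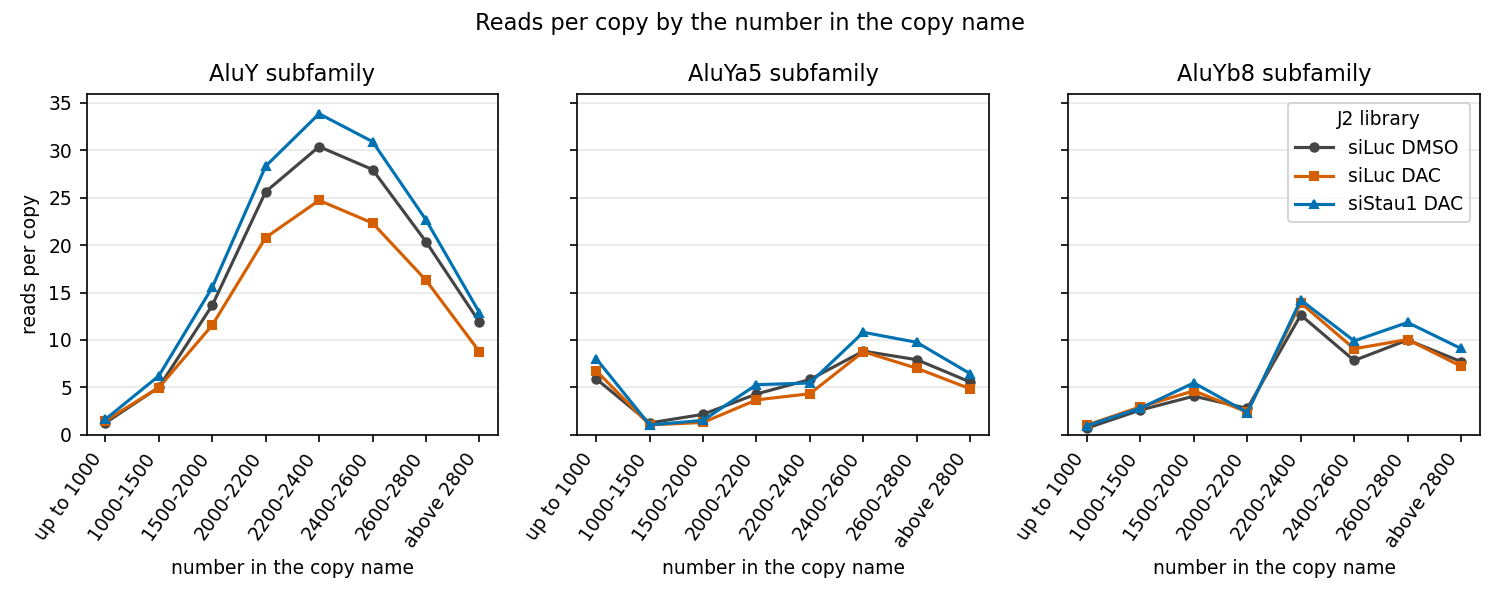
Reads per copy (linear axis) in bins of the number in the copy name, for the AluY subfamily, AluYa5 and AluYb8; each line is 1 J2 library. In the AluY group the density peaks between 2200 and 2400, at 29.5 reads per copy in siLuc DMSO; the AluYa5 and AluYb8 bins below 2400 hold 23 to 160 copies each.

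The density of reads on an AluY copy also varied with how many Alu elements stood near it in the tables. The 10 preceding and 10 following entries were searched for Alu of any group. What the order of entries stands for is not stated in the files, so this is a property of the tables and not a measured distance; neighbouring Alu entries had like read numbers, with a Spearman coefficient of 0.605, 0.658 and 0.616 in siLuc DMSO, siLuc DAC and siStau1 DAC between an AluY copy and the next Alu entry (145394 copies), and 0.109, 0.095 and 0.110 at 1000 Alu entries away. AluY copies with no Alu nearby (5397 copies) had 2.68, 2.04 and 2.81 reads per copy in the 3 libraries. Those with 15 to 20 Alu entries nearby (2861 copies) had 70.9, 58.4 and 80.2. In siLuc DMSO the density rose at every step between, through 21.6 at 5 to 6 and 42.1 at 9 to 10 nearby entries.

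The gradient was found in every kind of repeat examined, and at this window its ratio was highest for the pooled AluY group in each library. AluY copies with at least 10 Alu entries nearby had 11.1 times the reads per copy of those with at most 2 (siLuc DMSO), 11.9 (siLuc DAC) and 11.7 (siStau1 DAC). The same ratio was 10.1, 10.9 and 10.9 for AluS, 8.14, 8.81 and 8.67 for AluJ, and 7.26, 7.99 and 7.53 for MIR, an older SINE of separate origin. The AluY subfamily, which holds most of the copies, had 10.3, 10.9 and 10.6. It was thus close to AluS in siLuc DMSO and siLuc DAC and below it in siStau1 DAC. The gap between the AluY group and AluS has no replicate error behind it and was not shared by the AluY subfamily in every library.

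The ratio was computed for 7 AluY subfamilies, and of these it was highest in AluYc, at 19.7, 24.0 and 21.8, and lowest in AluYa5, at 4.27, 5.14 and 4.65. AluYb8 had 6.08, 8.14 and 6.95. AluYa5 and AluYb8 copies also had fewer Alu entries nearby, 4.04 and 4.14 on average against 5.75 in the AluY subfamily. Weighted to the same distribution of nearby Alu entries, AluYa5 had 8.56, 7.89 and 10.4 reads per copy and the AluY subfamily 25.6, 20.6 and 28.4. The lower density of AluYa5 was thus present at matched numbers of nearby Alu entries, with the same limit from reads that match several copies.

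**Figure D3:**
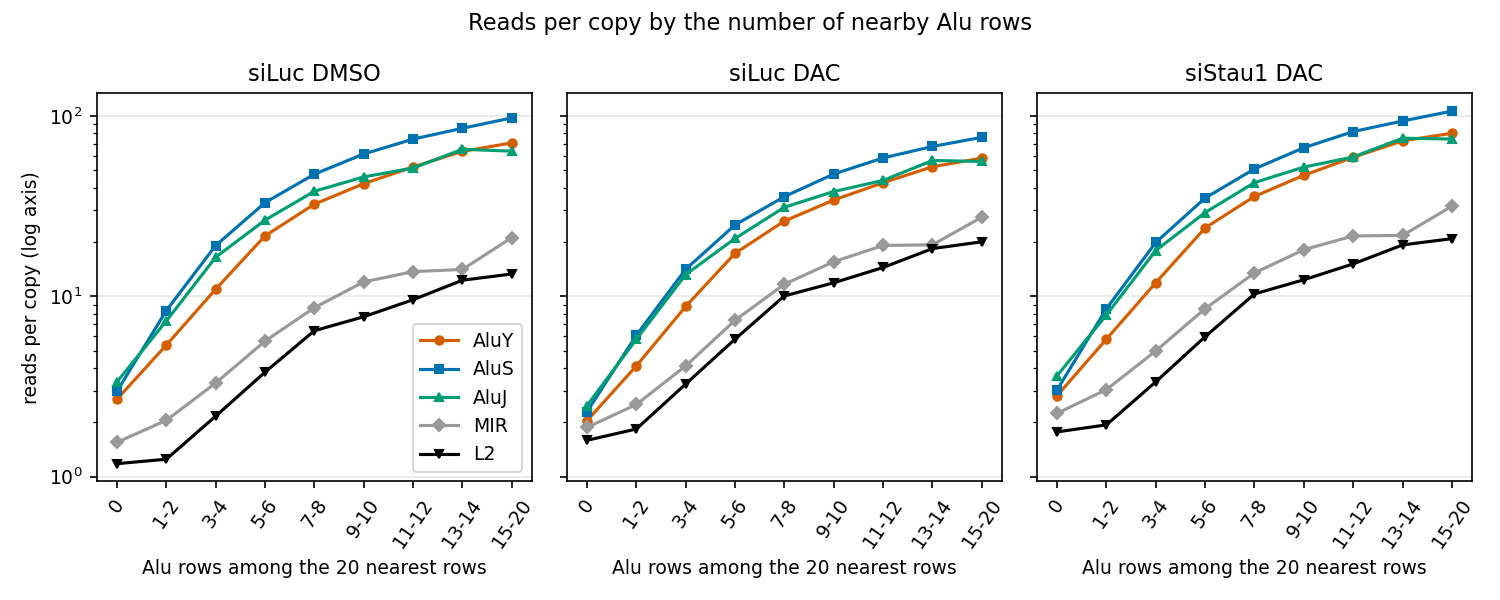
Reads per copy (log axis) against the number of Alu entries among the 20 nearest table entries, for AluY, AluS, AluJ, MIR and L2; 1 panel per J2 library. All 5 kinds of repeat are higher at the right end than at the left, AluY in siLuc DMSO at 70.9 against 2.68. AluJ falls slightly at the last step, in siLuc DMSO from 65.3 to 63.8.

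Decitabine in control cells was the first comparison, siLuc DAC over siLuc DMSO. Within AluY, the shares of several subfamilies were higher with the drug, AluYb8, AluYc and AluYa5 among them. The shares of AluYj4, AluYi6 and AluYe6 were lower. These shifts are given relative to the AluY subfamily, a ratio that no scaling of the libraries can change. AluYb8 was higher by 0.27 on the log2 scale (interval 0.23 to 0.31), from 20611 to 20050 reads while the AluY subfamily went from 2669610 to 2148183. AluYc was higher by 0.20 (0.18 to 0.23), from 56234 to 52057 reads. AluYa5 was higher by 0.14 (0.10 to 0.18), from 24268 to 21482 reads. Without the 10 copies richest in reads the values were 0.21, 0.19 and 0.09, so each kept its direction without the leading copies. Here and below, leading copies were left out of the named subfamily only, and the AluY subfamily kept all of its copies. Among copies numbered above 2000, AluYc was higher by 0.12 (0.09 to 0.15). The rise was not particular to these subfamilies. AluYh3 was higher by 0.14, or 0.13 without its top 10 copies. AluYe5 was higher by 0.13, or 0.04 (-0.01 to 0.09) without its top 10 copies.

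Of the other shifts, several became smaller or changed sign without their leading copies, and that of AluYe6 hardly changed. AluY copies with fewer reads had lower median ratios in this pair, as given below. Whether leaving out leading copies on 1 side only lowered these values was not tested. AluYk11 went from 1478 to 1742 reads and was higher by 0.55 (0.41 to 0.69), but its leading copy of 176 held 23.4% and 36.1% of its reads, and without the top 10 copies the value was -0.24 (-0.55 to 0.07). AluYb9 was higher by 0.22 and, without its top 10 copies, lower, at -0.26. AluYj4 went from 63858 to 46906 reads and was lower by 0.13 (log2 ratio -0.13, interval -0.16 to -0.11), or -0.04 without its top 10 copies. AluYi6, from 2724 to 1923 reads, was at -0.19, or -0.05 without them. AluYe6, from 4268 to 3013 reads, was at -0.19 with the top copies and -0.18 without. AluYa8, from 911 to 1012 reads, was at 0.47 (0.28 to 0.65), or 0.24 (0.01 to 0.48) without its top copy, which held 31.5% and 41.2% of its reads. Without its top 10 copies it was at 0.36 (0.04 to 0.69), from 311 to 322 reads. The large subfamilies AluYk2, AluYk3 and AluYm1 stayed within 0.02 of the AluY subfamily, and without their top 10 copies were at -0.048, -0.022 and -0.034.

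Of the 24 subfamilies other than AluY itself, 12 had an interval above the AluY subfamily and 3 below it. The background was 74.3% of 3322 repeat families above and 4.33% below, so most other repeats gained on AluY by more than its own subfamilies did. Against the AluS group, 20 of 25 AluY subfamilies were higher with the drug and 5 lower, beside 90.8% of all repeat families higher and 9.18% lower. A position above AluS was therefore the usual one for a repeat family in this pair, and was not particular to AluY.

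**Figure D4:**
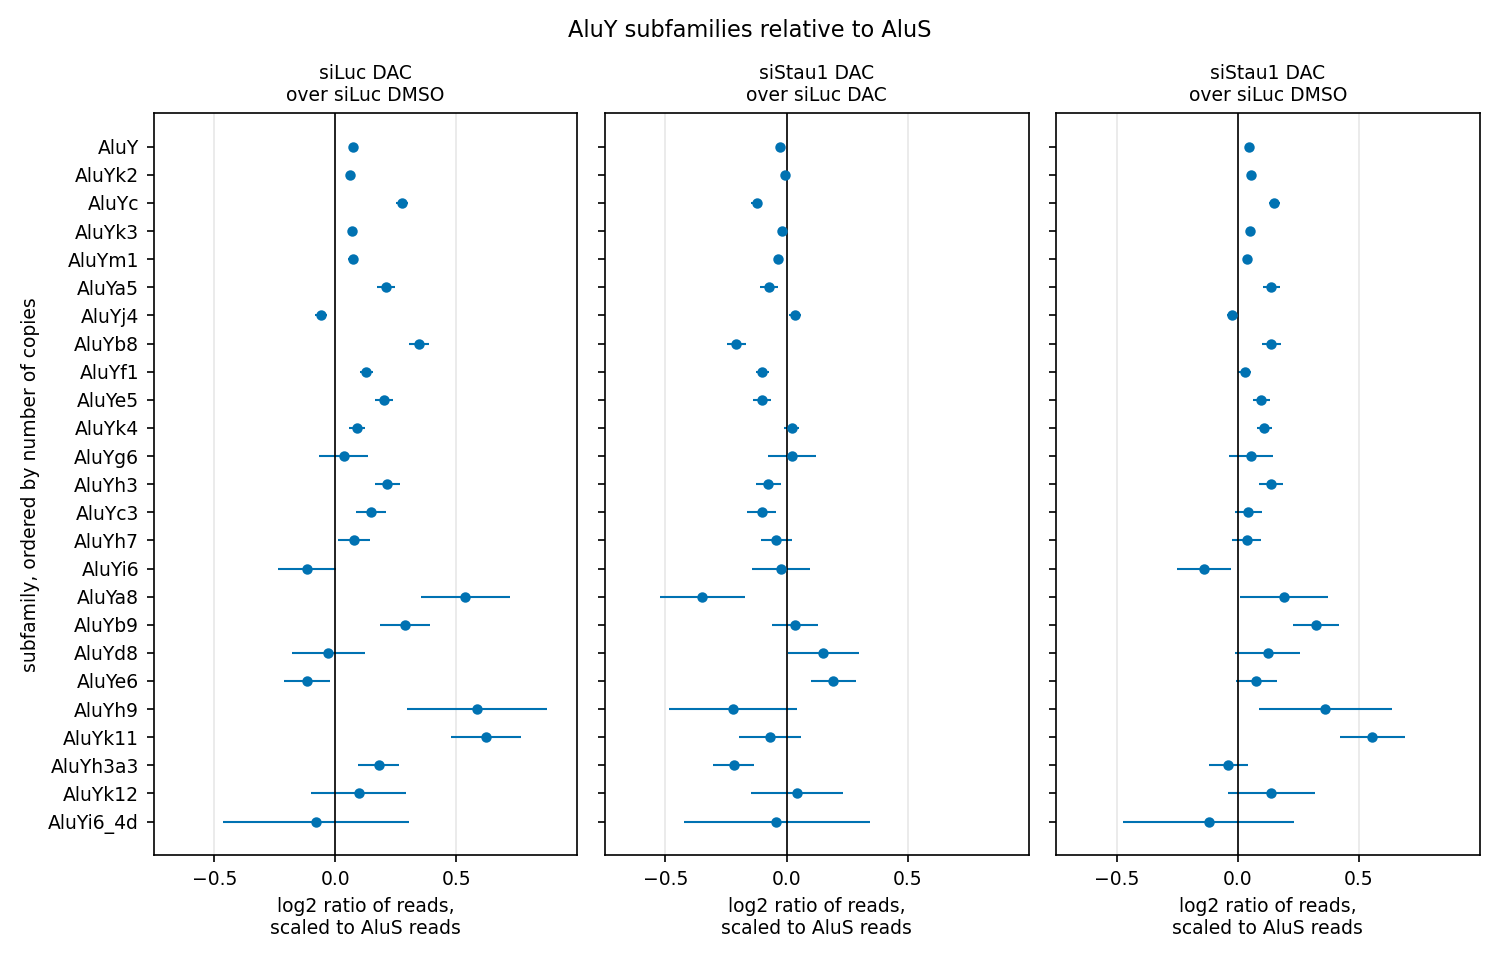
Log2 ratio of summed reads of each AluY subfamily relative to the AluS group, for the 3 pairs of libraries; points are ratios and bars are 95% counting intervals with 2 reads as 1 draw, with no replicate error. In siLuc DAC over siLuc DMSO 20 of 25 lie above 0, in siStau1 DAC over siLuc DAC 7 and in siStau1 DAC over siLuc DMSO 21; scaled instead to all repeat reads the counts above 0 are 4, 23 and 10.

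The direction of AluY as a whole depended on the scaling. Scaled to all repeat reads, the summed AluY log2 ratio of siLuc DAC over siLuc DMSO was -0.26 (-0.26 to -0.25), but it was 0.63 with the authors' scaling factors, 0.08 scaled to AluS reads and -0.58 scaled to reads outside Alu. With all repeat reads as the scale 21 of 25 subfamilies were lower, against 21.5% of 3323 repeat families, and 4 were higher, against 78.5%, while under the authors' factors all 25 were higher. Scaled to all repeat reads, and among subfamilies with at least 1000 reads in the 2 libraries, AluYi6 and AluYe6 were lowest at -0.45 each and AluYj4 next at -0.39, and AluYk11, AluYa8 and AluYb8 were highest at 0.29, 0.20 and 0.01. No spike-in or input library was used here, so the amount of duplex RNA in the cells and the share recovered cannot be told apart.

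Single copies gave the same order of groups. Over the 35219 AluY copies with at least 20 reads in the 2 libraries, the median log2 ratio of siLuc DAC over siLuc DMSO was -0.30 with all repeat reads as the scale (0.59 with the authors' factors), with quartiles of -0.90 and 0.25. The AluS median was -0.38 and the AluJ median -0.23 on the same scale. The AluY median was 0.08 above that of AluS (interval over copies 0.06 to 0.09), which the scaling leaves nearly untouched. Over copies with at least 1 read the difference was 0.032. A ratio of more than 2-fold up was found in 7.43% of AluY copies, against 21.3% of all repeat elements, and more than 2-fold down in 22.1%, against 17.0%. Copies of AluYa5 and AluYb8 had medians of 0.04 (395 copies, interval -0.15 to 0.11) and 0.03 (322 copies, -0.13 to 0.17), and the AluY subfamily -0.31. Both of the first 2 intervals include 0. The summed ratios on the same scale were -0.12 for AluYa5 and 0.01 for AluYb8. The share of AluY copies more than 2-fold down was 30.3% at 20 to 49 reads, where the median was -0.38, and 6.65% at 500 reads or more, where it was -0.21.

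The copies with the highest ratios were taken from those with at least 100 reads in the 2 libraries. They lay just above that minimum, where large ratios are reached most easily. A copy of the AluY subfamily numbered 373 had 13 reads (siLuc DMSO), 109 (siLuc DAC) and 66 (siStau1 DAC). Another, numbered 2510, had 12, 94 and 25, and an AluYb8 copy numbered 2554 had 14, 101 and 31. Their high reads in siLuc DAC relative to siLuc DMSO follow from choosing them by this ratio.

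The lowest ratios came from copies with no read at all in siLuc DAC. A copy of the AluY subfamily numbered 2520 had 360 reads (siLuc DMSO), 0 (siLuc DAC) and 263 (siStau1 DAC). Another, numbered 2508, had 352, 0 and 431, and a copy numbered 2468 had 343, 0 and 364. With a floor of 3 draws, or 6 reads, in that library, they were at least 57-fold, 56-fold and 55-fold lower in siLuc DAC than in siLuc DMSO, scaled to all repeat reads. Of 22667 AluY copies that had 20 reads or more in both siLuc DMSO and siStau1 DAC, 337 (1.49%) had 0 reads in siLuc DAC, against 2.15% of all repeat elements. AluS had 1.83% and AluJ 1.71%. The reverse was rare: by the same measure 2 of 19688 AluY copies were at 0 in siLuc DMSO, against a background of 0.202%, and 0 of 19268 in siStau1 DAC (which allows a share of up to 0.0156%), against 0.0042%.

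Absence in siLuc DAC extended to the neighbours of those copies. The Alu entries counted within 10 entries of the 337 copies held 57278 reads (siLuc DMSO), 4632 (siLuc DAC) and 59462 (siStau1 DAC). Left out of these totals was every repeat element at 0 in siLuc DAC by the measure above, AluS and AluJ included. The log2 ratio of these totals was -3.58 for siLuc DAC over siLuc DMSO, scaled to all repeat reads. Around the 22330 copies that kept reads, the same ratio was -0.26. Among subfamilies, 246 of 17688 copies of the AluY subfamily (1.39%) were at 0, 22 of 730 of AluYm1 (3.01%), 21 of 947 of AluYk3 (2.22%), 1 of 172 of AluYa5 and 2 of 161 of AluYb8. A blank stretch of this kind belongs to 1 library and has no second library to compare it with.

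The Staufen1 siRNA was compared under decitabine, siStau1 DAC over siLuc DAC. AluYb8, AluYc and AluYa5, which were higher relative to the AluY subfamily in siLuc DAC than in siLuc DMSO, were lower relative to it here; because siLuc DAC is part of both pairs, this is not a second observation. AluYb8 was at -0.18 (-0.22 to -0.14), from 20050 to 24406 reads, while the AluY subfamily went from 2148183 to 2961961. AluYc was at -0.10 (-0.12 to -0.07), from 52057 to 67112 reads, and at -0.032 (-0.062 to -0.0012) among copies numbered above 2000. AluYa5 was at -0.045 (-0.081 to -0.009), from 21482 to 28712 reads. AluYa8, with 1012 and 1117 reads, was at -0.32 (-0.50 to -0.15), and at -0.17 (-0.39 to 0.06) without its top copy. Without its top 10 copies AluYa8 was at -0.35 (-0.66 to -0.03). AluYe6, from 3013 to 4841 reads, was at 0.22, or 0.13 without its top 10 copies. AluYh3a3 was at -0.19 with its leading copy and 0.12 without it.

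Of 24 subfamilies, 5 had an interval above the AluY subfamily, against 8.83% of 3466 repeat families, and 8 below it, against 59.2%. Relative to AluS, 7 of 25 were higher and 18 lower, beside 18.7% and 81.3% of all repeat families. Scaled to all repeat reads, the summed AluY log2 ratio was 0.19, but it was -0.13 with the authors' factors, -0.03 scaled to AluS reads and 0.40 scaled to reads outside Alu. With all repeat reads as the scale 23 of 25 subfamilies were higher, against 35.4% of 3467 repeat families, and 2 lower, against 64.6%; under the authors' factors 2 were higher. On the scale of all repeat reads, among subfamilies with at least 1000 reads, AluYe6, AluYd8 and AluYk12 were highest at 0.42, 0.37 and 0.27, and AluYa8, AluYh3a3 and AluYb8 lowest at -0.13, 0.00 and 0.02.

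Copy by copy, AluY and AluS did not separate in this pair. The median over 35398 AluY copies was 0.20 scaled to all repeat reads (-0.12 with the authors' factors). Its difference from the AluS median was -0.0049 (interval over copies -0.018 to 0.0086). More than 2-fold up were 17.8% of AluY copies, against 15.5% of all elements, and more than 2-fold down were 7.90%, against 14.8%. AluYa5 and AluYb8 had medians of 0.07 (interval -0.017 to 0.16) and 0.09 (-0.016 to 0.22), and the AluY subfamily 0.22. A copy of the AluY subfamily numbered 2424 had 215 reads (siLuc DMSO), 0 (siLuc DAC) and 535 (siStau1 DAC), at least 74-fold higher in siStau1 DAC than in siLuc DAC against the floor of 6 reads. At the other end a copy numbered 2593 had 19, 114 and 16 reads, an AluYc copy numbered 897 had 34, 134 and 22, and a copy numbered 2375 had 51, 129 and 23. Those 3 were chosen for a low ratio among copies with at least 100 reads in the pair. Their high reads in siLuc DAC follow from that choice.

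The pair siStau1 DAC over siLuc DMSO differs in both the siRNA and the drug. AluYc, AluYb8 and AluYa5 were higher relative to the AluY subfamily, by 0.11 (0.08 to 0.13), 0.09 (0.06 to 0.13) and 0.09 (0.06 to 0.13). Without their top 10 copies AluYc was at 0.10, while AluYb8 and AluYa5 were at 0.04 and 0.03, with intervals that reach 0 (-0.00037 to 0.09, and -0.01 to 0.07). AluYk11 was at 0.51, or -0.02 without its top 10 copies, and AluYb9 at 0.28, or -0.11 without them. AluYi6 was at -0.18, or 0.05 without them. Of 24 subfamilies, 9 had an interval above the AluY subfamily, against 60.0% of 3312 repeat families, and 3 below it, against 3.56%.

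Relative to AluS, 21 of 25 subfamilies were higher and 4 lower in this pair, beside 86.1% and 13.9% of all repeat families. The summed AluY log2 ratio was -0.06 scaled to all repeat reads, 0.50 with the authors' factors, 0.05 scaled to AluS reads and -0.18 scaled to reads outside Alu. On the scale of all repeat reads 10 subfamilies were higher, against 78.8% of 3313 repeat families, and 15 were lower, against 21.2%, and under the authors' factors all 25 were higher. On the same scale, among subfamilies with at least 1000 reads, AluYk11, AluYb9 and AluYa8 were highest at 0.44, 0.21 and 0.08, and AluYi6, AluYh3a3 and AluYj4 lowest at -0.25, -0.15 and -0.14.

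The ratios of single AluY copies had their narrowest quartile range in this pair, while the size of their median depended on the scaling. The median over 38298 copies was -0.11 scaled to all repeat reads (0.46 with the authors' factors), with quartiles of -0.53 and 0.30, and lay 0.07 above the AluS median (0 with copies of at least 1 read). More than 2-fold up were 6.49%, against 14.5% of all elements, and more than 2-fold down 10.5%, against 8.27%. Read numbers per copy were most alike between these libraries, with a Spearman coefficient over the 145395 copies of 0.826, against 0.784 for siLuc DMSO with siLuc DAC and 0.791 for siLuc DAC with siStau1 DAC. The coefficients are descriptions over copies that share libraries and many of which hold no read. A copy of the AluY subfamily numbered 2161 had 66 reads (siLuc DMSO), 331 (siLuc DAC) and 454 (siStau1 DAC), and was high in both decitabine libraries. A copy numbered 2555 had 14, 29 and 114, and an AluYc copy numbered 2731 had 15, 53 and 110. The lowest ratios belonged to an AluYk3 copy numbered 1716 with 115, 0 and 18 reads, a copy of the AluY subfamily numbered 2537 with 78, 42 and 22, and another numbered 2376 with 84, 41 and 24.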

How the data were processed

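Libraries of J2-bound RNA were read from tables of repeat elements. The deposited values of siLuc DMSO were read counts with 1 added, and those of siLuc DAC and siStau1 DAC a signal, the authors' read counts with 1 added and then multiplied by a factor of 1.92 or 1.27. With that factor taken out, 100.0% of the values were whole reads (tolerance 1e-06). FPKM and q-values of genes were taken as the authors deposited them. Per the submitters' processing notes, tools were bcl2fastq 2.20, HISAT2 2.1.0, featureCounts, DESeq 1.36.0, Cuffdiff 2.2.1 and Cuffnorm 2.2.1, with hg38; the treatment of reads that match several copies is not given in the sources used here, and near-identical young copies may share reads.

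Reads were summed by subfamily with Python 3.11.15, numpy 2.4.6, pandas 2.3.3, scipy 1.17.1 and matplotlib 3.10.9, and scripts were tested on simulated data. Main ratios were scaled to all repeat reads; copies needed 20 reads in the 2 libraries, and 0.5 reads were added. Summed ratios carry exact binomial and shares Wilson intervals, and intervals of copy medians come from the ranks of copies. With 1 library per group no count model was fitted. Named were subfamilies with 1% of AluY reads, the extremes of reads per copy, the 3 highest and lowest ratios per pair (1000 reads for subfamilies, 100 for copies) and the 3 copies with most reads. Alternatives were other scalings, read minimums and omitted copies. Members and lists were chosen with earlier results of these data known.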

Additional observations from a re-analysis of the deposited data

How the results depend on the processing

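No paired analysis was possible because each J2 group has 1 library and the results come from no test. Pairs are given as siLuc DAC over siLuc DMSO, siStau1 DAC over siLuc DAC, and siStau1 DAC over siLuc DMSO. The summed AluY log2 ratio changed sign in each pair with the authors' factors (0.63, -0.13, 0.50) and, an alternative chosen after seeing the data, scaled to AluS reads (0.079, -0.029, 0.049); scaled to reads outside Alu it was -0.58, 0.40 and -0.18. By construction, these alternatives differ from the reported one only in the total each library is divided by. Without the top copy of each subfamily the first pair gave -0.26, and without copies at 0 in 1 library the first and second pairs gave -0.25 and 0.19. The number of AluY subfamilies higher was 25, 2 and 25 with the authors' factors, 20, 7 and 21 scaled to AluS, 0 and 3 in the first and last pairs scaled to reads outside Alu, and 2 in the first pair without the top copies. The median AluY copy ratio was 0.59, -0.12 and 0.46 with the authors' factors, 0.034, -0.022 and 0.0043 scaled to AluS, -0.62, 0.41 and -0.22 scaled to reads outside Alu, -0.58, 0.38 and -0.22 with at least 1 read, and -0.24, 0.18 and -0.075 with at least 100 reads. The AluY minus AluS median was 0.032, 0.013 and 0 with at least 1 read, and 0.099 in the first pair with at least 100 reads. The ratio of AluY reads per copy between Alu-dense and Alu-sparse entries ranged from 8.05 (5 entries each side, siLuc DMSO) to 17.1 (25 entries, siLuc DAC), and without the top 1% of copies was 8.06, 9.12 and 8.68 in siLuc DMSO, siLuc DAC and siStau1 DAC; these alternatives were also chosen after seeing the data. AluYc relative to the AluY subfamily was 0.12 and -0.032 in the first and second pairs among copies numbered above 2000, chosen likewise. Depth limits single copies: most AluY copies had too few reads for a ratio of their own.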

Other observations

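Reads on AluY copies came more often in even numbers than in odd ones. Copies with 2, 4 or 6 reads numbered 26274 (siLuc DMSO), 21125 (siLuc DAC) and 24324 (siStau1 DAC), and copies with 1, 3 or 5 reads numbered 10373, 10076 and 10316. The summed log2 ratio of AluY copies in siLuc DAC over siLuc DMSO, scaled to all repeat reads, varied with the number in their name. It was 0.29 up to 1000 and 0.11 between 1000 and 1500, and in the 6 ranges above 1500 it lay between -0.28 and -0.17.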
